A study of Mus musculus with 12 samples.

Results

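The transporters that move bile acids, organic anions and cations, sterols and phospholipids across the membranes of liver cells were followed in livers of the NICD1/Akt mouse model of cholangiocarcinoma (CCA). The members were all protein-coding genes whose symbol places them in the SLCO, SLC10, SLC22 or SLC51 families or in the ABC superfamily from ABCA to ABCG, and that reached 1 CPM, a read count scaled by library size, in at least 3 of the 12 liver libraries. Of 98 genes with such a symbol 70 met this level and 28 did not, out of 21807 gene IDs counted. The members were 9 Abca, 9 Abcb, 9 Abcc, 4 Abcd, 1 Abce, 3 Abcf, 5 Abcg, 6 Slc10, 16 Slc22, 1 Slc51 and 7 Slco genes. In all 12 libraries 55 of them reached 1 CPM, and none reached it in 1 group only.

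The 4 groups held 3 libraries each of poly(A) RNA from C57BL/6J liver. In the NICD/myr-AKT groups, written NICD1/Akt here, 10 µg each of plasmids for NICD1, the active intracellular part of the Notch1 receptor, and for myr-AKT, a membrane-bound form of the kinase Akt, had been given with the Sleeping Beauty transposase by hydrodynamic tail vein injection (HTVi), which delivers DNA mainly to hepatocytes. These livers are labelled as CCA tumour and were taken 2 weeks (libraries 33, 34 and 35) or 3 weeks (libraries 1, 2 and 3) after HTVi. The WT livers labelled for the same stages were libraries 30, 31 and 32 (2 weeks) and 10, 11 and 12 (3 weeks), and the submitters' protocol describes the controls as uninjected. The mice were described as males of 5 weeks of age at injection. Nothing in the sources says that each library is a separate mouse, so p-values cover only variation among the libraries sequenced, which may be technical.

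Hepatocytes take bile acids up from sinusoidal blood with the sodium-coupled carrier Slc10a1 (NTCP) and with organic anion transporting polypeptides of the SLCO family, and pump them into the bile canaliculus with the ATP-driven bile salt export pump Abcb11. Other canalicular ABC pumps add phosphatidylcholine (Abcb4), sterols (Abcg5 with Abcg8), and conjugated anions and drugs (Abcc2, Abcg2), while Abcc3, Abcc4 and the Slc51 pair export bile acids back to blood. Bile duct cells carry a different set, and the bile acid receptor FXR, encoded by Nr1h4, is the main known regulator of several of these genes.

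Total counts ran from 13136892 to 19594839 per library. The labels were checked against marker genes first. Akt1 counts, which can include the transgene, lay between 594 and 850.4 CPM in the NICD1/Akt livers of 3 weeks and between 74.5 and 85.3 CPM in their controls, but the library labelled control 32 stood at 381 CPM, where NICD1/Akt livers of 2 weeks had 285 to 927 CPM. On this gene, and on the cholangiocyte markers given below, library 32 went against its label of control. It was kept under that label in every 2-week group and among all 6 controls, and values without it are given where they change a result. The Y-linked gene Ddx3y lay between 52.2 and 126 CPM in the libraries of 3 weeks and in library 32 (57.2 CPM), and at 0.398 CPM or less in the other 5 libraries of 2 weeks. The stages therefore differ in a sex-linked gene. Apart from library 32, stage, sex and count table changed together and cannot be told apart. The 7 hepatocyte markers found (Alb and 6 others) summed to 97120 to 169600 CPM in the controls of both stages, 62910 to 152700 in NICD1/Akt at 2 weeks and 28940 to 39700 at 3 weeks. The 7 cholangiocyte markers summed to 87.4 to 135 CPM in 5 of the 6 controls, 2046 in library 32, 1185 to 4738 in NICD1/Akt at 2 weeks and 3501 to 4121 at 3 weeks. In bulk liver, fewer cells of a type and less RNA per cell cannot be told apart, and the part of these markers in the results below was not tested.

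At 3 weeks, 38 of the 67 members tested were lower in NICD1/Akt livers and 13 were higher, at an adjusted p under 0.05 in edgeR's quasi-likelihood test with Benjamini-Hochberg adjustment over all genes, the test behind every adjusted p in this text unless another tool is named. That is 56.7% of members lower, where 33.1% of all genes tested were lower, and 19.4% higher, where 38.9% of all genes were. The 13 include Slc22a2, Slc22a21 and Abcc12, which met the level rule only through the NICD1/Akt livers of 3 weeks. The median log2 fold change of the members was -0.68, beside 0.06 over all genes. With scaling by library size alone the median of all genes moved to 0.77 and the members split into 27 higher (40.3%) and 20 lower (29.9%), beside 67.7% and 9.6% of all genes, so the directions below are relative to the bulk of genes. Of all 70 members, 42 had every NICD1/Akt library of 3 weeks below every control and 13 had every one above, where 40.4% of all genes at the members' level lay wholly below and 37.0% wholly above. At 2 weeks no member of 66 passed in either direction, nor did any of all genes (0% and 0%). A missing call at this stage does not show that a gene was unchanged. At an unadjusted p under 0.05, 1 member was higher (1.52%, beside 4.90% of all genes) and 3 were lower (4.55%, beside 3.69%). DESeq2 also called 0 members at 2 weeks (11 higher and 11 lower over all genes), with 3 higher and 5 lower at its unadjusted p, where 6.18% and 3.55% of all genes were. Without library 32 the edgeR test still called 0 members at 2 weeks, with 5 higher and 6 lower at the unadjusted p, where 12.3% and 5.93% of all genes were. At this stage 0 members lay wholly above and 6 wholly below the controls, beside 7.52% and 8.44% of all genes.

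**Figure D1:**
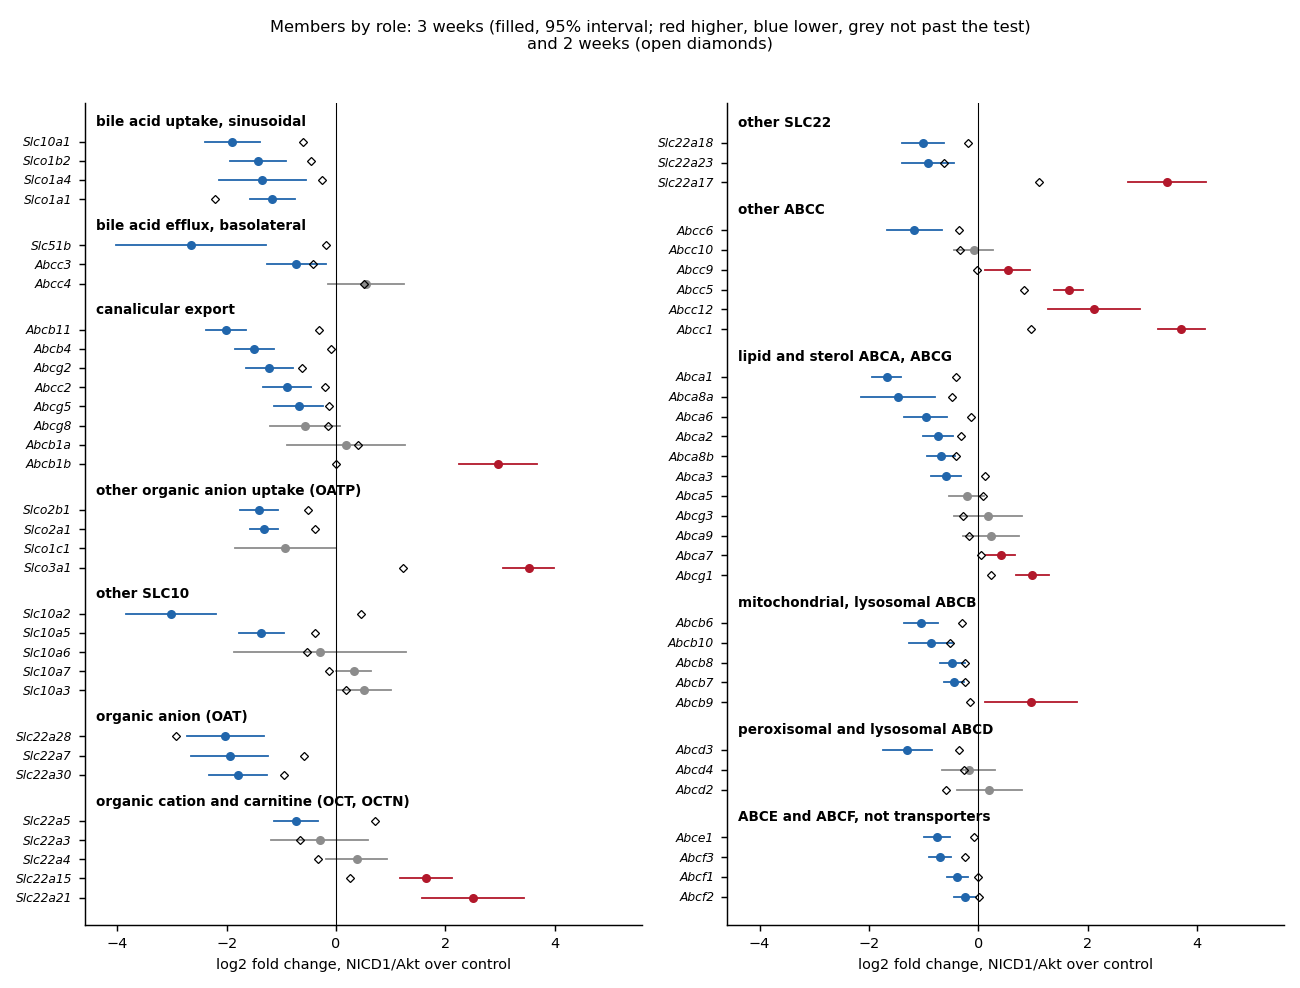
Log2 fold change of NICD1/Akt over control for 64 tested members (rows, by role) at 3 weeks, as filled points with 95% intervals, red where higher, blue where lower and grey where the adjusted p missed 0.05, and at 2 weeks as open diamonds where tested. Most hepatocyte uptake and canalicular genes lie left of 0 at 3 weeks, and Abcc1, Slco3a1, Slc22a17 and Abcb1b lie farthest right. Not all tested members are drawn; Slc22a2 is left out because its 3-week controls are all at 0.

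All 4 sinusoidal bile acid carriers were lower at 3 weeks. Slc10a1, the sodium taurocholate carrier, stood at 681, 716 and 695 CPM in controls and at 193, 112 and 212 CPM in NICD1/Akt livers (CPM scaled over all 12 libraries, here and throughout). The groups did not overlap, and the log2 fold change was -1.90 ± 0.22 (SE, n = 3 per group; adjusted p = 1.05e-04). At 2 weeks its CPM were 878, 1029 and 609 in controls and 624, 753 and 272 in NICD1/Akt livers, which overlapped, with the lowest value in library 35. The 2-week difference was -0.61 ± 0.41 (adjusted p = 0.54), and without library 32 it was -0.80 ± 0.43 (adjusted p = 0.366). Slco1b2, a liver uptake carrier of the organic anion family with unconjugated bile acids and bilirubin among its substrates, fell from 1589, 1803 and 1476 CPM to 658, 368 and 640.2 CPM at 3 weeks, by 1.43 on the log2 scale (SE 0.23, adjusted p = 5.49e-04). Per kilobase of exon it was the most abundant member in the controls of 3 weeks, at 329 CPM per kb, followed by Slc10a1 at 317 and Slco1a1 at 244.

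The pair of related carriers Slco1a1 and Slco1a4 were lower at 3 weeks too, on opposite backgrounds. Slco1a1, which is known to be higher in male mouse liver, had 1215, 1355 and 1286 CPM in controls of 3 weeks and 600.5, 390.3 and 587 CPM in NICD1/Akt livers, a log2 fold change of -1.17 ± 0.18 (adjusted p = 4.57e-04). In the 2-week set it was at 274, 209 and 575 CPM in controls and 89.8, 125 and 12.7 CPM in NICD1/Akt livers. No NICD1/Akt library reached the lowest control there, yet the change of -2.22 ± 0.81 had an adjusted p of 0.52. Slco1a4, known to be higher in female liver, lay at 24.9, 23.4 and 26.2 CPM in controls and 14.9, 4.93 and 7.03 CPM in 3-week NICD1/Akt livers (log2 fold change -1.35 ± 0.35, adjusted p = 0.00741). In the 2-week controls it read 152, 98.6 and 16.4 CPM, the last in library 32. Against all 6 controls together Slco1a1 lost its call at 3 weeks (-0.64, adjusted p = 0.405), and with all 12 libraries in 1 fit both did (adjusted p = 0.089 for Slco1a1 and 0.0627 for Slco1a4).

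**Figure D2:**
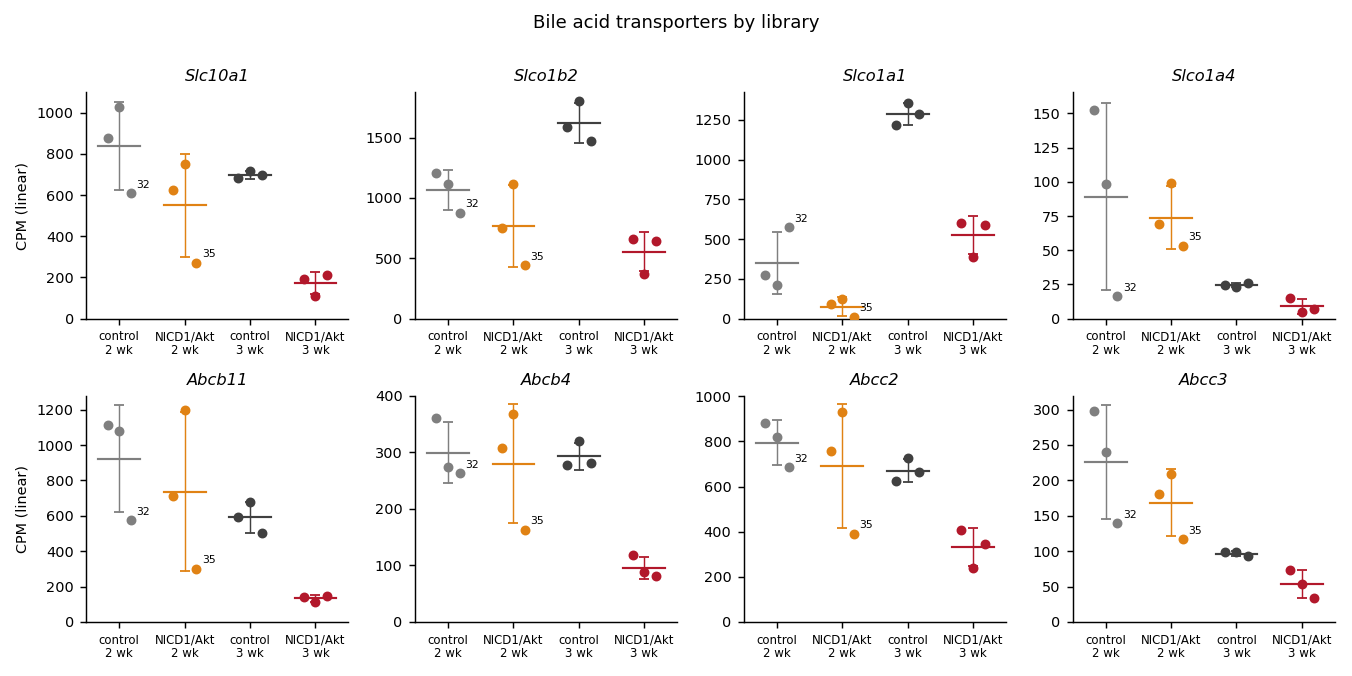
CPM on a linear axis from 0 for 8 bile acid and phospholipid transporters in the 12 libraries (points), with the mean of each group as a line and its SD as bars; libraries 32 and 35 carry their numbers. At 3 weeks every NICD1/Akt library lies below every control in each panel, while at 2 weeks the groups overlap in all panels but that of Slco1a1.

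On the canalicular side 5 of 8 members were lower at 3 weeks and 1 was higher. Abcb11, the bile salt export pump, had 594, 678 and 500.3 CPM in controls and 142, 112 and 148 CPM in 3-week NICD1/Akt livers, and its log2 fold change of -2.02 ± 0.16 (adjusted p = 1.26e-05) was the largest fall among the canalicular genes. At 2 weeks it read 1115, 1078 and 576 CPM in controls and 710.1, 1199.9 and 301 CPM in NICD1/Akt livers. The 2-week groups overlapped over nearly their whole range, with libraries 32 and 35 lowest in their groups (-0.32 ± 0.52, adjusted p = 0.777), and without library 32 the estimate was -0.58 ± 0.54 (adjusted p = 0.572). The difference between the stage effects was -1.82 ± 0.59 (adjusted p = 0.0393), but this call ended when any 1 of 10 of the 12 libraries was left out (adjusted p 0.0521 to 0.0898). Abcb4, the phosphatidylcholine floppase, changed from 278, 321 and 281 CPM to 118, 87.8 and 81.5 CPM at 3 weeks, a log2 fold change of -1.49 ± 0.15 (adjusted p = 5.45e-05). Its 2-week values were 362, 274 and 264 CPM in controls and 308, 368 and 163 CPM in NICD1/Akt livers, with hardly any difference in the fit (-0.09 ± 0.32). For Abcb4 the difference between stages was -1.51 ± 0.38 (adjusted p = 0.0163), and it held with each library left out in turn.

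The conjugate exporter Abcc2 was at 625, 725 and 662 CPM in controls and 408, 239.5 and 345 CPM in NICD1/Akt livers of 3 weeks (log2 fold change -0.90 ± 0.19, adjusted p = 0.00269), a call that ended under library-size scaling (-0.21, adjusted p = 0.263). Abcg2, an exporter of drugs and urate, read 94.7, 74.7 and 95.8 CPM in controls against 43.2, 25.6 and 36.1 CPM (-1.22 ± 0.19, adjusted p = 5.05e-04). In the 2-week controls Abcg2 was at 29.0, 34.2 and 84.0 CPM, where library 32 stood at the level of the 3-week controls and the other 2 near the NICD1/Akt livers. Against all 6 controls the Abcg2 call was lost (-0.98, adjusted p = 0.078). Of the sterol exporter subunits, Abcg5 fell by 0.69 on the log2 scale (SE 0.20, adjusted p = 0.0129), whereas Abcg8 had -0.57 ± 0.28 and an adjusted p of 0.0956. The 95% interval for Abcg8, -1.21 to 0.07, holds the estimate for Abcg5. Under library-size scaling Abcg5 came to 0.01 on the log2 scale, so its direction rests on the TMM scaling.

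The paralogous multidrug exporters Abcb1a and Abcb1b moved differently. Abcb1b had 1.55, 0.609 and 0.667 CPM in controls of 3 weeks and 6.78, 6.37 and 7.22 CPM in NICD1/Akt livers, a log2 fold change of 2.96 ± 0.31 (adjusted p = 5.73e-05). At 2 weeks all 6 libraries lay between 0.433 and 2.78 CPM, and the difference between stages was 2.84 ± 0.75 (adjusted p = 0.0201). Abcb1a had 1.47, 2.44 and 0.667 CPM in controls and 2.01, 1.80 and 0.885 CPM in NICD1/Akt livers of 3 weeks, with a log2 fold change of 0.18 and a 95% interval of -0.90 to 1.26. How the counting treated reads that both copies share is not known, so the split between them is uncertain.

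Of the basolateral exporters, Abcc3 was lower at 3 weeks, with 98.4, 98.3 and 93.0 CPM in controls and 72.7, 54.3 and 33.8 CPM in NICD1/Akt livers (log2 fold change -0.73 ± 0.23, adjusted p = 0.0209). This call ended without control library 10 (adjusted p = 0.0527), and under library-size scaling the estimate was -0.02 (adjusted p = 0.931). Slc51b, a subunit of the organic solute transporter, was near the detection limit at 1.72, 2.35 and 1.00 CPM in controls and 0.379, 0.0368 and 0.326 CPM in NICD1/Akt livers (-2.65 ± 0.60, adjusted p = 0.00379). Its partner Slc51a stayed below the level rule, with 0.75 CPM or less in every library. Abcc4 had values of 2.33, 2.35 and 3.17 CPM against 4.32, 4.01 and 2.19 CPM and no call (0.55 ± 0.30, adjusted p = 0.135).

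To show the sequence context of the genes that changed, 300-base windows from RefSeq (GRCm38.p6; 250 bases before to 50 after an annotated start) were found for 54 of the 70 members and searched on both strands for motifs of factors known to bind transporter promoters. The FXR element, an inverted repeat of GGTCA with 1 base between, was in 0 of the 54 in its exact form (0.0481% of all genes with windows), and with at most 1 letter off it was in 3 of 54 (5.56%, beside 0.87% of all genes). The 3 were Abcb11, Slc51b and Slco1b2, all lower at 3 weeks, as were 38 of all 67 members tested (56.7%). The allowance of 1 letter was chosen after the Abcb11 window had been read, so the count is a description. A stretch of 100 bases from each window follows, 5′ to 3′ on the gene's strand, with the near match in capitals.
Abcb11 (chr2:69342617-69342716, minus strand, match starting 62 bases before the start): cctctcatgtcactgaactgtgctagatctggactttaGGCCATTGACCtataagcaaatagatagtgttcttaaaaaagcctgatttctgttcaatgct
Slc51b (chr9:65422900-65422999, minus strand, match 186 bases before the start): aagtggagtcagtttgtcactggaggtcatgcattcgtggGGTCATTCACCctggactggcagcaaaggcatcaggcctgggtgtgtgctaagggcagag
Slco1b2 (chr6:141629418-141629517, plus strand, match 87 bases before the start): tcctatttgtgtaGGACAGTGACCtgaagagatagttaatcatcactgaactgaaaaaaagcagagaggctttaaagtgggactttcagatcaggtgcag

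The letters TGGGAA, the core that the Notch partner RBPJ reads, were in the windows of 15 of 54 members (27.8%), beside 28.3% of all genes. In the 150 bases before the start alone they were in 12 of 54 (22.2%), beside 14.9% of all genes. Of the 15 members, Abcc5, Slc22a17 and Abcc9 were called higher at 3 weeks. Those called lower were more, among them Abca8a, Abca8b, Abcc2, Slc10a2, Slc22a28, Slc22a30, Slco1a1 and Slco2b1. Of all members tested at that stage 19.4% were higher and 56.7% lower. The letters are shown for 2 members that were higher at 3 weeks, Abcc5 and Slc22a17, and for 1 that was lower, Abcc2. The Abcc2 window also holds an inverted repeat of GTTAAT with 2 letters off, the form read by HNF1 factors. With up to 2 letters off that repeat was in 4 of 54 members (7.41%, beside 1.58% of all genes), and exact copies were in 0 (0.0111% of all genes). Only the exact repeat had been planned, so the looser count is a description as well. Capitals mark both motifs.
Abcc5 (chr16:20426395-20426494, minus strand): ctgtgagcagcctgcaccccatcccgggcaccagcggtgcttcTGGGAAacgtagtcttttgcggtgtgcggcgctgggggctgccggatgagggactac
Slc22a17 (chr14:54913133-54913232, minus strand): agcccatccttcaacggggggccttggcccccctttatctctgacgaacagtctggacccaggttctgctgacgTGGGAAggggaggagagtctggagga
Abcc2 (chr19:43782208-43782307, plus strand): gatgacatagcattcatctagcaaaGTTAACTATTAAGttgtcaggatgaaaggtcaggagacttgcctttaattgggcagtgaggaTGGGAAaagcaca
The remaining motifs were CAAAGTCCA (HNF4), in 1 member (Abcd3, 1.85% beside 0.555% of genes), and TGACNNNGC (NRF2), in 6 of 54 (11.1%, beside 14.0%). A match says only that the letters are present in the window.

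The members that were higher at 3 weeks came from several families. Abcc1 (MRP1), an exporter of glutathione conjugates that is usually sparse in hepatocytes, had 3.02, 3.74 and 2.42 CPM in controls and 35.5, 43.6 and 31.9 CPM in NICD1/Akt livers, a log2 fold change of 3.72 ± 0.19 (adjusted p = 1.24e-06). At 2 weeks the controls were at 4.13, 4.25 and 10.0 CPM, the last in library 32, and the NICD1/Akt livers at 8.17, 8.95 and 18.4 CPM, the last in library 35. The 2-week change was 0.97 ± 0.48 (adjusted p = 0.52), and without library 32 it was 1.52 ± 0.44 (adjusted p = 0.208). The effect differed between stages by 2.63 ± 0.56 (adjusted p = 0.00963). Slco3a1, a broadly expressed carrier of prostaglandins and thyroid hormone, rose from 5.43, 3.66 and 5.42 CPM to 42.2, 63.2 and 48.2 CPM at 3 weeks (3.52 ± 0.21, adjusted p = 2.48e-06). In the 2-week set it read 6.79, 9.30 and 25.4 CPM in controls and 20.9, 19.2 and 55.3 CPM in NICD1/Akt livers. Its difference between stages, 2.19 ± 0.73 (adjusted p = 0.0434), was lost when any 1 of 9 libraries was left out (adjusted p 0.0592 to 0.109).

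The cyclic nucleotide exporter Abcc5 followed the same order of libraries. It was at 10.3, 8.62 and 8.50 CPM in controls and 26.0, 25.6 and 27.7 CPM in NICD1/Akt livers of 3 weeks (1.65 ± 0.11, adjusted p = 5.60e-06). At 2 weeks the controls had 8.45, 10.9 and 18.2 CPM and the NICD1/Akt livers 16.6, 17.0 and 32.7 CPM. Slc22a17, known as a lipocalin-2 receptor, rose at 3 weeks from 1.03, 1.83 and 0.583 CPM to 10.2, 13.6 and 10.9 CPM (3.45 ± 0.31, adjusted p = 2.62e-05). In all 4 of these genes library 32 was the highest 2-week control and library 35 the highest 2-week NICD1/Akt liver. The cholangiocyte markers had the same order, with 2046 CPM in library 32, 4738 in library 35 and 1375 or less in the other 4 libraries of 2 weeks.

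**Figure D3:**
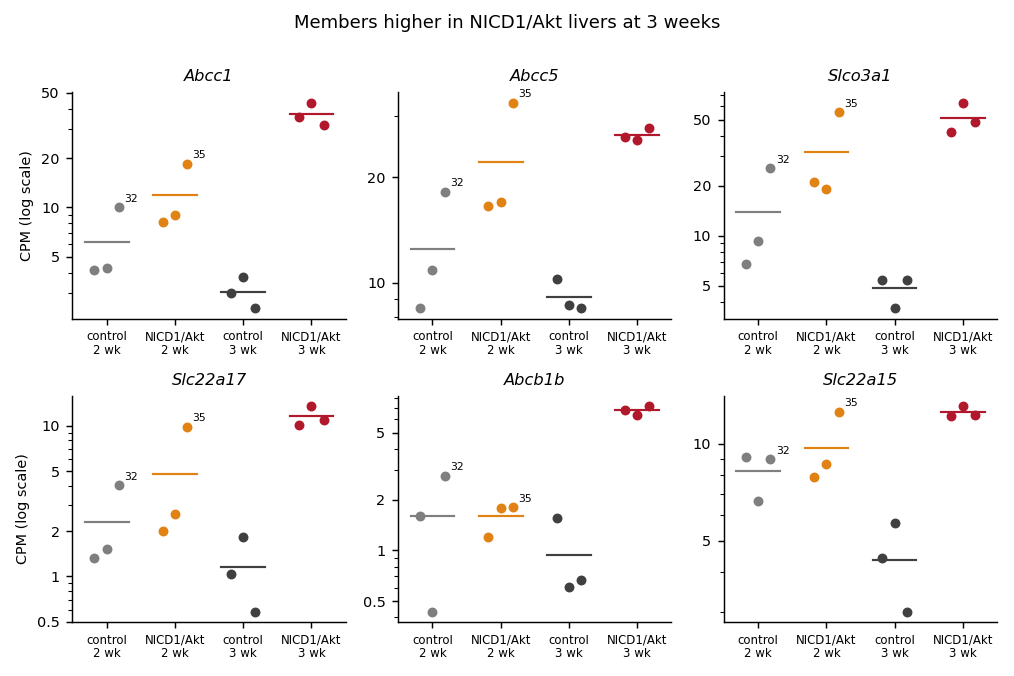
CPM on a log axis for 6 members higher in NICD1/Akt livers at 3 weeks, with each library as a point and each group mean as a line; libraries 32 and 35 carry their numbers. At 3 weeks the groups are apart in every panel, and at 2 weeks library 32 lies among or above the NICD1/Akt livers in every panel.

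Slc22a15, a carrier of zwitterions and carnitine, had 4.40, 5.66 and 3.00 CPM in controls and 12.2, 13.1 and 12.3 CPM in NICD1/Akt livers of 3 weeks (1.65 ± 0.21, adjusted p = 1.47e-04). Both 2-week groups lay between 6.63 and 12.6 CPM. Its difference between stages was 1.29 ± 0.35 (adjusted p = 0.0215), with an adjusted p of 0.0527 without library 33. Several low-level members were also higher at 3 weeks and are named here after their values were seen. These members, Slc22a2, Slc22a21 and Abcc12, met the level rule only through the NICD1/Akt livers of 3 weeks. Their being higher there is in part set by that rule. Slc22a2, the organic cation carrier best known from kidney, had 0 counts in all 3 controls and 1.40, 2.95 and 1.58 CPM in NICD1/Akt livers, at least 23.5-fold higher against a floor of 3 counts over the control group. Slc22a21, a carnitine carrier, changed from 0.259, 0.696 and 0.250 CPM to 2.01, 1.84 and 2.52 CPM (2.50 ± 0.41, adjusted p = 6.36e-04). Abcc12 read 0.431, 0.348 and 0.750 CPM against 2.27, 1.62 and 2.33 CPM (2.12 ± 0.37, adjusted p = 8.94e-04).

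The remaining 4 higher members had smaller changes. Abcg1, a cholesterol exporter of macrophages and other cells, was at 7.16, 6.79 and 7.0 CPM in controls and 13.4, 11.3 and 13.6 CPM in NICD1/Akt livers (0.99 ± 0.13, adjusted p = 2.25e-04). Against all 6 controls the Abcg1 call was lost (0.47, adjusted p = 0.127). The 6 macrophage markers were all higher at 3 weeks as well, with sums of 126 to 168 CPM in controls and 341 to 513 CPM in NICD1/Akt livers. Abca7 (0.41 ± 0.11), the lysosomal peptide carrier Abcb9 (0.97 ± 0.37) and the potassium channel subunit Abcc9 (0.54 ± 0.18) had adjusted p-values of 0.0111, 0.041 and 0.0238. The Abca7 call ended when all 12 libraries were fitted together (0.29, adjusted p = 0.0816) and against all 6 controls (0.13, adjusted p = 0.463). The Abcb9 call ended when any 1 of 5 of the 6 libraries was left out (adjusted p 0.0604 to 0.136), and the Abcc9 call without control library 11 or 12 (0.0556 to 0.0748).

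The organic anion carriers of the SLC22 family that could be tested were lower at 3 weeks. Slc22a7 (OAT2), a hepatocyte carrier of organic anions, was at 287, 264 and 249 CPM in controls and 78.0, 32.3 and 81.3 CPM in NICD1/Akt livers of 3 weeks (-1.94 ± 0.31, adjusted p = 5.52e-04). Slc22a30 had 271, 204 and 247 CPM against 79.0, 41.6 and 71.1 CPM (-1.79 ± 0.23, adjusted p = 1.80e-04). Slc22a28 read 24.4, 20.02 and 29.3 CPM in controls and 5.83, 3.06 and 7.97 CPM in NICD1/Akt livers (-2.02 ± 0.31, adjusted p = 4.30e-04). Against all 6 controls the calls for Slc22a7 (-1.36, adjusted p = 0.126) and Slc22a28 (-1.34, adjusted p = 0.287) were lost. These 3 were all the OAT members with enough counts to be tested at 3 weeks. The cation carrier Slc22a3 was low, at 0.609 to 1.55 CPM in controls and 0.682 to 0.810 CPM in NICD1/Akt livers, with no call (-0.30 ± 0.39).

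Slc22a5 (OCTN2), the carnitine carrier, had estimates of opposite sign at the 2 stages, of which that at 3 weeks passed. At 2 weeks it was at 24.2, 18.9 and 19.5 CPM in controls and 40.2, 37.6 and 24.1 CPM in NICD1/Akt livers. The NICD1/Akt library 35 lay just below the highest control, and the change of 0.71 ± 0.21 had an unadjusted p of 0.014 and an adjusted p of 0.52. At 3 weeks it fell from 35.2, 24.0 and 28.8 CPM to 19.5, 13.7 and 15.8 CPM (-0.73 ± 0.17, adjusted p = 0.00529), but under library-size scaling the estimate was -0.03 (adjusted p = 0.879). The difference between stages was -1.55 ± 0.31 (adjusted p = 0.00721) and held with each library left out in turn and under library-size scaling (-0.90, adjusted p = 0.025).

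Of the other uptake carriers, Slco2b1 had 182, 203 and 165 CPM in controls and 63.6, 51.4 and 75.8 CPM in NICD1/Akt livers of 3 weeks (-1.41 ± 0.15, adjusted p = 7.02e-05). Slco2a1, a prostaglandin carrier found in endothelium, had 162, 157 and 147 CPM against 51.6, 54.5 and 65.8 CPM (-1.32 ± 0.11, adjusted p = 2.06e-05). Of the 5 endothelial markers 1 was higher and 1 lower at 3 weeks, with sums of 223 to 263 CPM in controls and 179 to 237 CPM in NICD1/Akt livers. Abcc6, a hepatocyte ABC protein needed for ATP release, fell by 1.17 on the log2 scale (SE 0.22, adjusted p = 0.00137) from 207, 237 and 193 CPM to 106, 56.7 and 97.2 CPM.

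Among the 11 lipid and sterol transporters of the ABCA and ABCG families, 6 were lower at 3 weeks and 2 higher. Abca1, which loads cholesterol onto apolipoprotein A1, was the largest of the falls at -1.67 ± 0.12 (adjusted p = 5.71e-06). The others were Abca8a (-1.47 ± 0.30, adjusted p = 0.00212), Abca6, Abca2, Abca8b and Abca3 (-0.59 ± 0.12, adjusted p = 0.00221). The 4 ABCE and ABCF members, which act in translation and not as transporters, were all lower, by 0.24 to 0.76 on the log2 scale. Of 5 mitochondrial and lysosomal ABCB members 4 were lower and Abcb9 was higher. Of the 4 ABCD members, which serve peroxisomes and lysosomes, Abcd3, a carrier of branched and long-chain acyl-CoA, was the only one called, with 515, 563 and 514 CPM in controls and 251, 144 and 202 CPM in NICD1/Akt livers (adjusted p = 3.84e-04).

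Some of these falls rested on controls of 3 weeks that were themselves higher than those of 2 weeks. Slc10a2 (ASBT), the sodium-coupled bile acid carrier of ileum and bile duct epithelium, was at 445, 247 and 438 CPM in the controls of 3 weeks and between 19.8 and 66.0 CPM in all 9 other libraries. Its log2 fold change at 3 weeks was -3.02 ± 0.36 (adjusted p = 1.14e-04), and the controls of 3 weeks were above those of 2 weeks by 3.54 ± 0.41 (adjusted p = 1.19e-04). Between the NICD1/Akt livers of 3 and 2 weeks the difference was -0.06 ± 0.37 (adjusted p = 0.92), and the stage effects differed by -3.60 ± 0.54 (adjusted p = 0.00229). The 2 contrasts that involve the 3-week controls share those libraries. Against all 6 controls Slc10a2 was not called at 3 weeks (-2.26, adjusted p = 0.113). The cholangiocyte markers summed to 92.9 to 135 CPM in these 3 controls, near the 87.4 and 89.3 CPM of the 2-week controls 30 and 31.

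Abca1 had the same outline. It was at 571, 589 and 548 CPM in the controls of 3 weeks, 219, 236 and 169 CPM in those of 2 weeks, and 182, 151 and 159.8 CPM in NICD1/Akt livers of 3 weeks. The controls differed by 1.45 ± 0.23 (adjusted p = 7.47e-04) and the stage effects by -1.38 ± 0.32 (adjusted p = 0.0126), while the NICD1/Akt livers of the 2 stages differed by 0.07 ± 0.22. Slc22a7 was at 77.5, 49.7 and 55.2 CPM in the controls of 2 weeks, which were 2.13 ± 0.38 below those of 3 weeks on the log2 scale (adjusted p = 0.00148). Abca3, a lamellar body lipid carrier in lung, was 1.67 ± 0.31 higher in controls of 3 weeks (adjusted p = 0.00195), and Abce1, a ribosome recycling factor, 0.70 ± 0.12 (adjusted p = 0.00102). Abca5 was also higher in those controls, by 1.54 ± 0.22 (adjusted p = 3.55e-04), but was not called at 3 weeks (-0.21, adjusted p = 0.2). In all, 11 of the 70 members were higher in controls of 3 weeks than of 2 weeks (15.7%, beside 17.4% of all genes) and 17 were lower (24.3%, beside 20.4%).

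**Figure D4:**
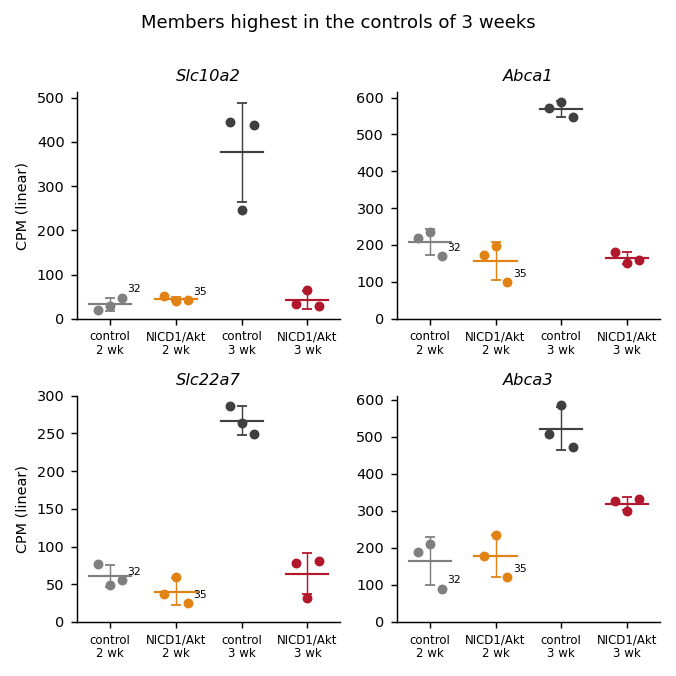
CPM on a linear axis from 0 for Slc10a2, Abca1, Slc22a7 and Abca3 in the 12 libraries, with group means as lines and SDs as bars. The 3 controls of 3 weeks lie above all other libraries in each panel.

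Another set of members split the libraries as Ddx3y did. Slc22a26 and Slc22a27, liver OAT genes named here after their values were seen, were abundant in 5 libraries of 2 weeks and nearly absent elsewhere. Both met the level rule only in those libraries, so this split is in part set by the rule. Slc22a26 read 289.9 and 160.0 CPM in controls 30 and 31 but 0.0772 CPM in library 32, 174, 216 and 79.6 CPM in NICD1/Akt livers of 2 weeks, and 0.431 CPM or less in all 6 libraries of 3 weeks. Slc22a27 had 34.8 and 45.6 CPM, 0.386 CPM in library 32, 39.3, 37.4 and 20.9 CPM, and at most 0.0932 CPM at 3 weeks. By summed counts Slc22a27 was 487-fold higher in controls of 2 than of 3 weeks (95% counting interval 134 to 4020) and 754-fold in NICD1/Akt livers (258 to 3660), intervals that cover counting error only. The peroxisomal acyl-CoA carrier Abcd2 had 127, 98.9 and 12.05 CPM in controls of 2 weeks and 2.67, 3.57 and 4.0 CPM in those of 3 weeks (-4.53 ± 0.75, adjusted p = 9.90e-04).

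The opposite order was seen for Slc22a28 and Slco1a1. Slco1c1 had it between the stages only, as library 32, at 0.154 CPM, stayed near the other 2-week libraries. Slc22a28 was at 1.06, 1.23 and 9.42 CPM in controls of 2 weeks, the last in library 32, and its controls of 3 weeks were higher by 2.67 ± 0.72 (adjusted p = 0.0144), or by 4.40 ± 0.49 without library 32. Slco1c1, a thyroxine carrier best known from brain capillaries, had 86 counts over the 3 controls of 3 weeks and 2 over those of 2 weeks, a 51.3-fold ratio (13.8 to 430). Slco1c1 met the level rule only in libraries of 3 weeks, so its order is in part set by the rule. The 2-week changes of Slc22a28 (-2.93 ± 1.02, unadjusted p = 0.026) and Slco1a1 (unadjusted p = 0.03) were 2 of the 3 falls at an unadjusted p under 0.05, and without library 32 they were -1.18 ± 0.63 and -1.69 ± 0.79. The 1 member higher at that level was Slc22a5. The 5 liver genes known to be higher in males summed to 11210 CPM in library 32. Their sum was 90.5 to 139.8 CPM in the remaining 2-week libraries and 478 to 2556 CPM at 3 weeks. In library 32 Mup20 alone made up 10070 CPM. Hsd3b5 (186 CPM) and Cyp4a12a (395 CPM) lay below the controls of 3 weeks there (292 to 312 and 550 to 632 CPM). Elovl3 (496 CPM) lay within the range of those controls and Cyp4a12b (62.8 CPM) above it. The 7 genes known to be higher in females summed to 1.39 CPM in library 32. Their sum was 356 to 1917 CPM in the remaining 2-week libraries and 1.13 to 2.84 CPM at 3 weeks. The Slc22a26 to Slc22a30 genes are close paralogs, and how reads shared between them were counted is not known.

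**Figure D5:**
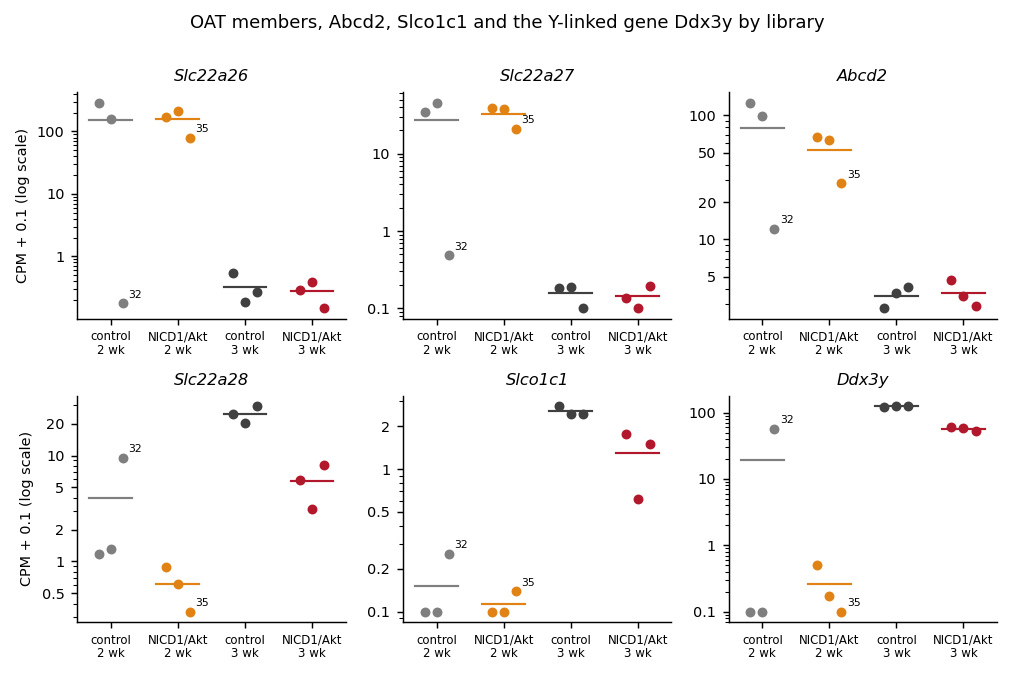
CPM plus 0.1 on a log axis for Slc22a26, Slc22a27, Abcd2, Slc22a28, Slco1c1 and the Y-linked Ddx3y, with each library as a point and group means as lines; libraries 32 and 35 carry their numbers. The top row is high in 5 libraries of 2 weeks and low at 3 weeks, the bottom row is the reverse, and library 32 departs from controls 30 and 31 in every panel but that of Slco1c1, where it is at 0.154 CPM.

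Across stages, the effect of NICD1/Akt differed for 13 members, 5 higher (7.14%, beside 15.0% of all genes) and 8 lower (11.4%, beside 15.8%). The 5 were Abcc1, Slco3a1, Abcb1b, Slc22a15 and Abcg1, and the 8 were Slc10a2, Abcb11, Slc22a5, Abcb4, Abca1, Slc22a18, Abce1 and Abcf1. Without library 35, the 2-week NICD1/Akt liver with the lowest hepatocyte and the highest cholangiocyte marker sums, the counts were 9 and 30, where calls over all genes rose as well, to 23.7% higher and 25.1% lower. Without library 32 they were 3 and 6, beside 10.1% and 10.9% of all genes. Without library 35 they took in Slc10a1 (-1.73, adjusted p = 0.00401) and Slco1b2 (-1.36, adjusted p = 0.0114). Between NICD1/Akt livers of 3 and 2 weeks, 9 members were higher (12.9%, beside 11.1% of all genes) and 26 were lower (37.1%, beside 17.4%). Those lower included 6 of the 8 canalicular members, of which Abcc2, Abcb1a and Abcg8 each lost the call without any 1 of 3 or 4 of the 6 libraries (adjusted p 0.0529 to 0.0884). Abcb11 was lower by 2.46 ± 0.43 on the log2 scale (adjusted p = 0.00336), Abcb4 by 1.55 ± 0.27 (adjusted p = 0.00328) and Slc10a1 by 1.67 ± 0.36 (adjusted p = 0.00809). Here the NICD1/Akt livers differ in Ddx3y as well as in time, since all 3 of the earlier stage lack its reads or nearly so.

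Genes that work beside the transporters were taken as lists. Of 11 bile acid synthesis genes 10 were lower at 3 weeks and 0 higher, with a median log2 fold change of -1.60. The exception was Cyp7a1, the rate-limiting enzyme of the classic pathway, with -1.42 ± 0.60 and an adjusted p of 0.0589. Its controls already differed, with 191 and 201 CPM in libraries 30 and 31, 51.1 CPM in library 32 and 51.2 to 64.7 CPM at 3 weeks. The NICD1/Akt livers of 2 weeks had 50.5, 36.5 and 17.3 CPM of Cyp7a1, just below library 32 at the highest and far below libraries 30 and 31. Of 16 receptors and factors that control transporters 11 were lower and 1, the bile acid receptor Gpbar1, was higher. Nr1h4 (FXR) had -0.80 ± 0.12 (adjusted p = 3.82e-04), Hnf4a -1.61 ± 0.18 (adjusted p = 9.43e-05) and Nr0b2 (SHP), a target of FXR, 0.50 ± 0.80 (adjusted p = 0.594). Nr0b2 was uneven among the controls of 3 weeks, at 1.90, 24.9 and 2.75 CPM, the high value in library 11. The NICD1/Akt livers of that stage had 15.6, 6.37 and 16.3 CPM of it. Of 9 partners and transporters outside the symbol rule 5 were lower and 3 higher. The cation exporter Slc47a1 changed by -1.89 ± 0.21 (adjusted p = 7.46e-05) and Atp8b1, a canalicular phospholipid flippase, by -0.82 ± 0.09 (adjusted p = 5.64e-05). The 3 higher were the peptide transporters Tap1 (1.81 ± 0.18) and Tap2 (0.71 ± 0.09), which are ABC proteins of antigen presentation, and the bile duct chloride channel Cftr, at 0, 0.174 and 0.0834 CPM in controls of 3 weeks and 47.6, 71.4 and 49.6 CPM in the tumour-bearing livers of that stage. At 2 weeks no gene of these 3 lists passed. Beside them the 7 hepatocyte markers were all lower at 3 weeks, with a median log2 fold change of -1.66, and the 7 cholangiocyte markers all higher, with a median of 3.63.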

How the data were processed

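Liver RNA of 12 libraries was analysed. The authors deposited gene-level raw counts as 1 table per stage. The study's methods name STAR with mm10 and HTSeq, while GRCm39 with STAR 2.7 and Subread 2.0.6 stand in the notes of the submitters on processing. Which made the counts is not settled, so no gene coordinates are given from them. Symbols and exon lengths came from GENCODE M21 by gene ID (21573 of 21807 IDs) and promoter windows from RefSeq GRCm38.p6.

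From the deposited counts, TMM-scaled CPM, log2 fold changes and p-values were computed with edgeR 4.0.16 in R 4.3.3 (filterByExpr, glmQLFit, glmQLFTest, Benjamini-Hochberg over all genes tested, adjusted p under 0.05). Each stage was fitted on its 6 libraries, and comparisons across stages on all 12. Alternatives were DESeq2 1.42.0, other scaling factors, no filter, all 6 controls, 1 fit of all libraries, and each library left out. The fits were tested on simulated data, where the fit of 2 weeks recovered fewer of the changes put in than that of 3 weeks. No 2 libraries of a group agreed within sampling noise (chi-square per gene 4.96 to 136).

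Members, gene lists and roles were chosen with earlier results of these data known. Named members were a fixed hepatobiliary core, the 6 largest changes in each direction at 3 weeks among those called, the 6 largest in each direction at 2 weeks at an unadjusted p under 0.05, the 6 smallest adjusted p-values for the difference between stages and between controls, and members behind any count of 5 or fewer. Members outside this rule, such as Slc22a26, Slc22a27, Slc22a2, Abca3 and Abcd3, were named after their values were seen. Some members are not reported here by name.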

Additional observations from a re-analysis of the deposited data

Results flagged for a closer look

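The effect of NICD1/Akt differed between 3 and 2 weeks, by a test of the difference itself in the fit of 12 libraries, for 13 members. The difference in log2 fold change was -3.6 for Slc10a2, -1.82 for Abcb11, -1.55 for Slc22a5, -1.51 for Abcb4, -1.38 for Abca1, -0.93 for Slc22a18, -0.8 for Abce1 and -0.49 for Abcf1. It was 2.84 for Abcb1b, 2.63 for Abcc1, 2.19 for Slco3a1, 1.29 for Slc22a15 and 0.64 for Abcg1. The calls for Slc10a2, Slc22a5, Abcb4, Abca1, Abce1, Abcc1 and Abcb1b held with each of the 12 libraries left out in turn. Those for Abcb11, Slc22a18, Abcf1, Slco3a1 and Abcg1 ended without any 1 of 8 to 10 libraries, at adjusted p-values between 0.0521 and 0.109, and that for Slc22a15 without library 33 (0.0527). Library 32, labelled control, with 57.2 CPM of Ddx3y and 381 CPM of Akt1, and library 35 enter every one of these differences. The part of either in them beyond the values without it was not tested. Apart from library 32, stage, sex-linked expression and count table changed together and cannot be told apart.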

How the results depend on the processing

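With scaling by library size only, 27 members were higher and 20 lower at 3 weeks (67.7% and 9.6% of all genes), and 14 higher and 4 lower for the difference between stages (25.5% and 2.15% of all genes). There Abca3 (0.11), Abca5 (0.49), Abcc10 (0.62), Abcf1 (0.33) and Abcg5 (0.0071) had a positive log2 fold change at 3 weeks, and Abcf1 a positive difference between stages (0.14). For that difference DESeq2 called 8 higher and 12 lower (18.7% and 16.8% of all genes). Upper quartile factors gave 6 higher and 5 lower (19% and 8.13% of all genes). Of 41 named calls at 3 weeks, DESeq2 kept 40, RLE and upper quartile factors 41 each, no filter 40, 1 fit of all libraries 36, all 6 controls 29 and library size only 30. Leaving out 1 library gave 11 to 13 higher and 36 to 40 lower at 3 weeks, 0 and 0 at 2 weeks, 3 to 9 and 5 to 30 for the difference between stages, 8 to 13 and 7 to 18 between controls, and 5 to 12 and 16 to 35 between NICD1/Akt livers. The count of 30 was without library 35 and that of 7 without control library 12. Over all genes the same fits called 36.1% to 38.1% higher and 29.6% to 31.9% lower at 3 weeks. For the difference between stages the shares were 8.59% to 23.7% and 8.58% to 25.1%. Between controls they were 13.2% to 15.2% and 13.8% to 17.5%, and between NICD1/Akt livers 4.77% to 22.4% and 9.44% to 25.6%. Low-level members such as Slc51b, Slc22a2 and Slco1c1 rest on few counts. No paired analysis was possible because the groups share no replicate numbers.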

Other observations

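Among the 28 genes below the level rule, a few carried low counts. Abcc8, a subunit of the beta-cell potassium channel, had 0.682, 0.663 and 0.0466 CPM in the 3-week NICD1/Akt livers and 0 in all 6 controls. Slco1a5 reached 1.10 CPM in library 35 and 0.531 CPM or less in the other libraries. Slco4a1 lay between 0.532 and 0.74 CPM in the 6 libraries of 2 weeks and between 0 and 0.516 CPM at 3 weeks.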
